A study of Mus musculus with 12 samples.

Results

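The genes described here code for the factors that start and extend protein synthesis on cytosolic ribosomes. They are the 61 of 24015 genes in the deposited tables whose symbols begin with Eif1 to Eif6, Eef1 or Eef2, without the sex chromosome pair Eif2s3x and Eif2s3y. The choice used symbols and no measured value. All 61 had a row in the LPS table and 60 in the IL7 table, and Eef2 in IL7 was not analysed here. In initiation, eIF2 brings the initiator tRNA to the small ribosomal subunit, eIF3 holds the complex together, and the cap-binding eIF4 proteins bring in the mRNA and unwind it. In elongation, the eEF1 complex delivers aminoacyl-tRNAs and eEF2 moves the ribosome along by a codon. The supply of these proteins follows growth signals and MYC in many cell types, and B cells raise protein synthesis strongly when they are stimulated.

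RNA sequencing compared B cells of WT mice with those of mice carrying the T58A point mutation in MYC, a change at a residue whose phosphorylation marks MYC for breakdown. The mice were littermates per the series design; the labels do not say whether they carried the mutation on 1 or both alleles, and give no age, strain or animal for a library. The groups were WT marrow B cells with IL7, T58A marrow B cells with IL7, WT splenic B cells with LPS and T58A splenic B cells with LPS, 3 libraries each. All 12 cultures were kept for 48 hours in RPMI with 10% serum and the named stimulus, IL7 being the growth factor of B cell precursors and LPS a bacterial product that activates mature B cells. Tissue and stimulus always changed together, so their parts in a difference between the cultures cannot be told apart.

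Libraries held 8486753 to 10201113 reads assigned to genes in IL7 and 5110746 to 9332410 in LPS. A count of 0 allows up to 3 reads, which is 2.15 to 4.12 normalised reads, a limit for counting error and nothing else. As a check of the labels, 5 B lineage genes summed to 25686 normalised reads or more in every library, and 6 precursor B genes to at least 15357 in the IL7 libraries and at most 58.8 in the LPS libraries. Sex-linked transcripts showed WT 1 and WT 2 to be female in both cultures and WT 3 and every T58A library to be male, although IL7 WT 2 also held 108.7 normalised reads from Y-linked genes. Genotype and sex changed together in pairs 1 and 2, and genotype alone changed in pair 3. Summed myeloid markers ran from 487 to 1704 in IL7 WT and from 337 to 759.6 in IL7 T58A. No myeloid gene passed the test, but all those tested in IL7 had a negative log2 change, T58A minus WT, from -0.34 for Lyz2 to -1.57 for S100a9. Summed plasmablast markers ran from 31938 to 84330 in LPS WT and from 19399 to 57062 in LPS T58A. Within IL7 the B lineage sum ran from 30113 to 46272 in WT and from 25686 to 31168 in T58A, and the precursor B sum from 16472 to 22247 and from 15357 to 18033. Of these lists, Cd79a and Cd79b of the B cell receptor (-0.46 and -0.53 on the log2 scale, T58A minus WT), the recombinase genes Rag1 and Rag2 (-0.78 and -0.84) and the plasmablast gene Igj (-2.05) fell in IL7 T58A, and the plasmablast gene Sdc1 (0.47) rose, in the blocked limma fit described below. The part of these shifts in the results was not tested.

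Levels per length set the order of the factors. In WT cells given LPS, Eef2 stood at 1798 ± 352 RPKM, reads scaled to exon length and library size (SD, n = 3), and Eef1a1, the carrier of aminoacyl-tRNA, at 1757 ± 167, which is within their spread. Eef1b2, a subunit of the exchange factor that reloads eEF1A with GTP, followed at 554 ± 40.2. In WT cells given IL7 the order began with Eef1a1 at 1122 ± 6.12, then Eif5a, which relieves stalled ribosomes and carries the amino acid hypusine, at 430 ± 61.9, and Eef1b2 at 360 ± 4.23. Per length, Eif5a was above Eef1b2 in each IL7 WT library. Among the initiation factors the highest in IL7 were Eif4g2 at 195 ± 17.3 and Eif4b at 195 ± 9.27, and in LPS the eIF3 subunit Eif3h at 219 ± 29.7.

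At the other end stood genes without usable signal. Eef1a2, the muscle and neuron form of eEF1A, had 0 to 2.07 normalised reads, and Eif4e1b, an oocyte relative of the cap-binding protein, was at 0 in all 12 libraries. Eif3j1 and Eif3j2 were also at 0. Of the 50-base windows of Eif3j2, 91.9% also occur in other genes, chiefly Eif3j1, so its counts are uncertain. For Eif3j1 the share was 36.9%, which leaves most of its windows unshared, and the reason for its count of 0 was not tested. These 4 genes did not pass the filter on low counts, which left 56 genes tested in IL7 and 57 in LPS. The lowest of those tested was Eif5a2, the second eIF5A gene, at 156 normalised reads on average in IL7 and 83.3 in LPS.

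**Figure D1:**
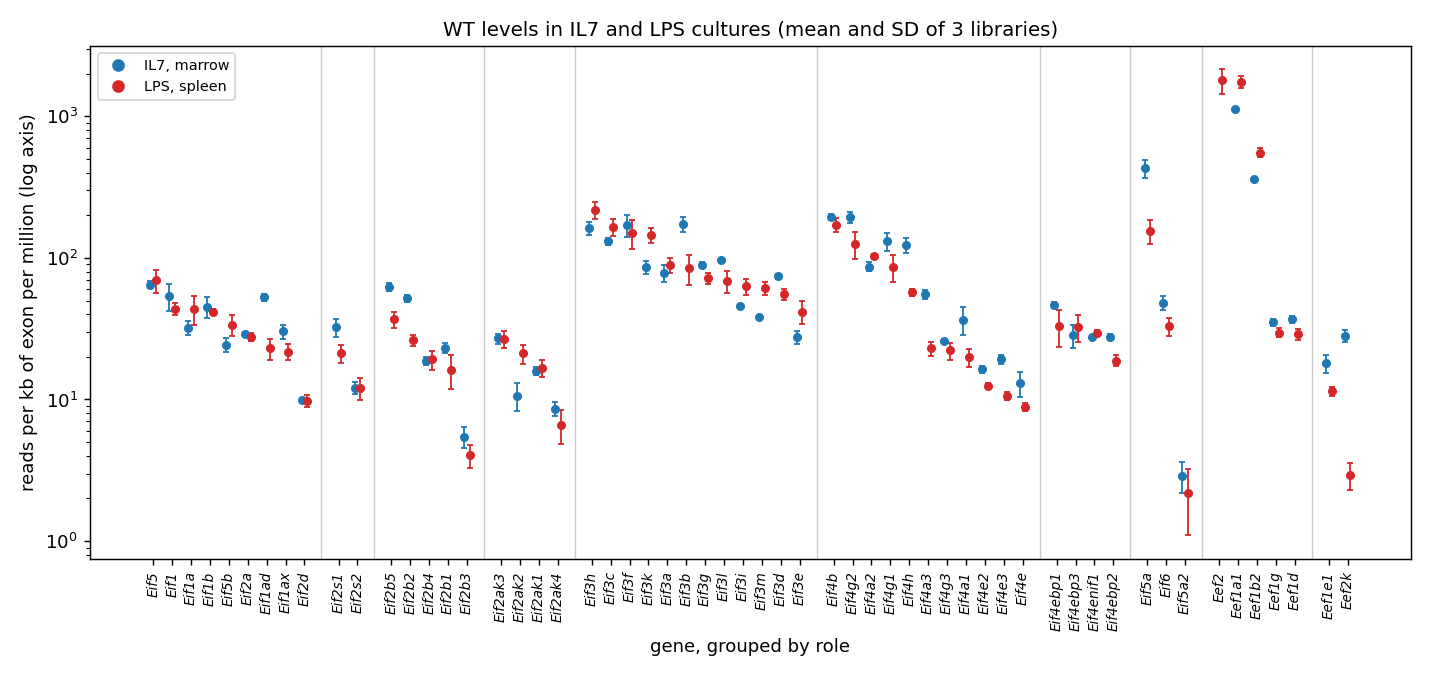
WT level of each detected gene in RPKM, reads scaled to exon length and library size (vertical log axis), grouped by role, with blue points for IL7 and red points for LPS cultures and bars for the SD of 3 libraries. Eef2 and Eef1a1 stand above all others in LPS, and Eef2k is at 28.3 in IL7 against 2.92 in LPS.

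The cultures differed most in a regulator of elongation. Eef2k, the kinase that phosphorylates and slows eEF2, was at 28.3 ± 2.87 in IL7 WT and 2.92 ± 0.616 in LPS WT, a ratio of 9.67. Eif5a was 2.78 times as high in IL7 as in LPS. Eif2ak2, the RNA-sensing eIF2 alpha kinase PKR, was 1.99 times as high in LPS, and Eef1a1 1.57 times. These ratios rest on scaling to total reads and exon length, and tissue and stimulus changed together. They are a description with no test.

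In IL7 cultures T58A cells held more mRNA for 9 of these genes, most of them initiation factors, by small amounts. With the pair as a block, 9 of 56 genes rose (16.1%) against 6.41% of all 11604 genes tested, and 1 fell (1.79%) against 6.31% (limma-trend, Benjamini-Hochberg adjusted p under 0.05). The genes that rose were the scaffold Eif4g1, its helper Eif4b, the eIF3 subunits Eif3a, Eif3b, Eif3c and Eif3l, the scanning factor Eif1a, the eIF4E-binding repressor Eif4ebp2 and the eIF2 alpha kinase Eif2ak4, by 17.8% to 31.5%. The gene that fell was Eef2k. In such bulk samples, more cells of a type and more RNA per cell cannot be told apart. The median log2 change, T58A minus WT, was 0.14 over the 56 genes and -0.01 over all genes, and 45 of the 56 were positive (80.4%) against 49.0% of all genes.

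The shift was present in each pair. Medians were 0.14, 0.16 and 0.09 in pairs 1, 2 and 3, and pair 3 is the one in which both libraries were male. T58A was above WT in every pair for 41 of 56 genes (73.2%) against 25.9% of all genes, and below it in every pair for 4 (7.14%) against 26.0%. Without regard to pairs, all T58A libraries stood above all WT libraries for 21 genes (37.5%) against 12.9%, and below them for 3 (5.36%), Eef2k, Eif3k and Eif4e3, against 10.8%. These genes were better measured than most, with a median of 1601 normalised reads against 376 over all genes and a median standard error of 0.07 against 0.10.

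The calls rest on the pairing. Without the block no gene of the 56 passed and 0 of 11604 genes did (0%), although 13 of the 56 and 1960 of all genes had an unadjusted p under 0.05; edgeR without the block also called 0 of the 56 and 0 of all genes (0%). DESeq2 without the block called 2 of the 56 higher, Eif3c and Eif4ebp2, against 1.53% of all genes, and 0 lower against 1.17%. With sex as a further term 0 of the 56 passed, against 0.362% of all genes, and the median was 0.09, a fit in which the genotype effect comes from pair 3. Without pair 1, 12 were higher (21.4%, against 5.78% of all genes) and 1 lower (1.79% against 6.18%). Without pair 2, 3 were higher (5.36% against 2.96%) and 0 lower (against 3.71%). Without pair 3, 2 were higher (3.57% against 2.96%) and 0 lower (against 4.21%), so the share called higher was then near that of all genes. In the authors' deposited table, 8 of the 56 genes given an adjusted p were higher and 1 lower at under 0.05, of 502 and 534 genes in all. How many genes in all were given an adjusted p was not counted, so no share stands beside these. The deposited p-values are those of a paired fit.

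**Figure D2:**
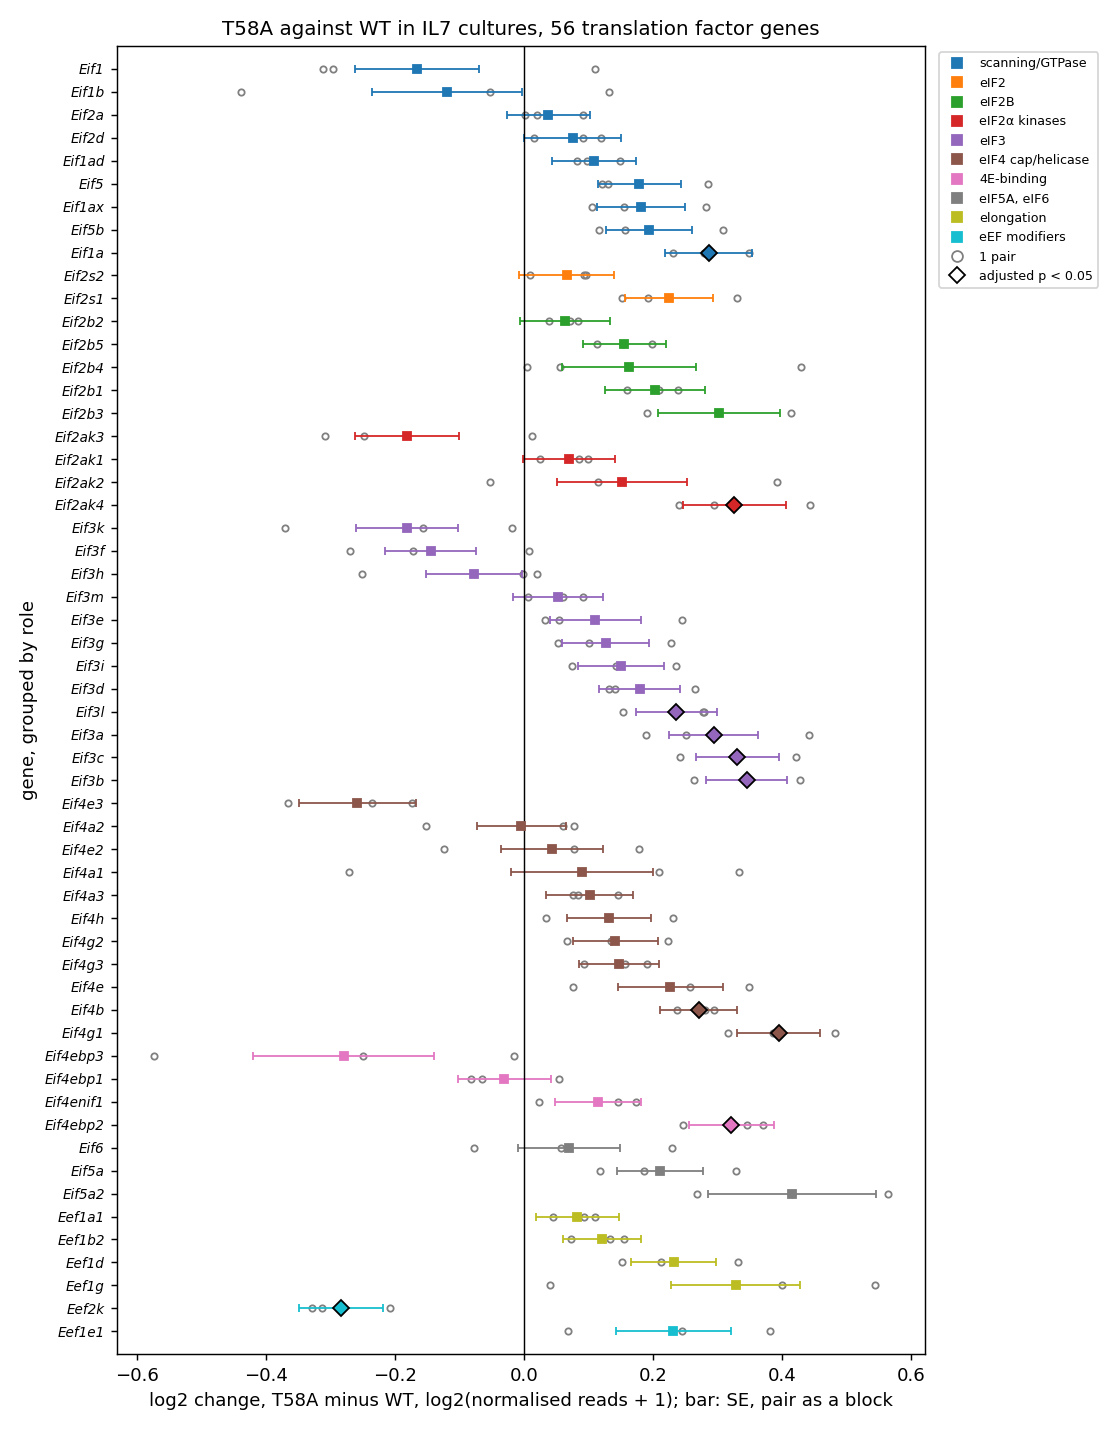
Log2 change, T58A minus WT, of the 56 genes tested in IL7 cultures (horizontal axis, log2 of normalised reads plus 1), grouped by role; squares and diamonds are the means with their SE (pair as a block), open circles the 3 pairs. Most points lie right of 0, and the diamonds, past an adjusted p of 0.05, are 9 genes that rose and Eef2k, which fell.

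Among the factors that find the start codon and check it, Eif1a rose, and 1 of 9 tested did so. Its product helps the small subunit scan. Eif1a was at 1073, 1301 and 1341 normalised reads in IL7 WT 1 to 3 and at 1366, 1526 and 1627 in T58A 1 to 3, with no overlap between the groups. The log2 change was 0.29 ± 0.07 (SE, adjusted p 0.0288, limma-trend). Its relative on the X chromosome, Eif1ax, had 0.18 ± 0.07 (adjusted p 0.116). Eif5, which makes eIF2 hydrolyse GTP and was the highest of the group per length, had 0.18 ± 0.06 (adjusted p 0.103). The 9 changes ran from -0.17 for Eif1 to that of Eif1a, with a median of 0.11. For this and the following role groups, the shares over all genes were 6.41% higher and 6.31% lower. Counts in groups this small are a description, with no test of a group.

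Neither eIF2 nor its exchange factor passed. Eif2s1, the eIF2 alpha subunit that stress kinases phosphorylate, had a log2 change of 0.22 ± 0.07 (adjusted p 0.0649, limma-trend). Eif2s2 had 0.07. All 5 subunits of eIF2B, which recharges eIF2 with GTP, had a positive change, from 0.06 for Eif2b2 to 0.30 ± 0.09 for Eif2b3 (adjusted p 0.0707). T58A was above WT in every pair for each, as for 73.2% of the 56 genes and 25.9% of all genes. Eif2b4 was nearly level in pair 3, at 470 normalised reads in WT and 472 in T58A. Eif2b5, the catalytic subunit, was the highest of them per length, at 62.3 in IL7 WT.

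Of the 4 kinases that phosphorylate eIF2 alpha, the amino acid sensor Eif2ak4, known as GCN2, rose. It was at 665, 579 and 543 normalised reads in WT 1 to 3 and at 815, 684 and 738 in T58A 1 to 3. All T58A values lay above all WT values, the nearest being 684 and 665. The log2 change was 0.33 ± 0.08 (adjusted p 0.0334, limma-trend), while DESeq2 with the block gave an adjusted p of 0.0843. Eif2ak3, the kinase PERK of the endoplasmic reticulum and the highest of them per length, had -0.18 ± 0.08 (adjusted p 0.168), with WT 3 and T58A 3 at 1464 and 1477.

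The eIF3 subunits had unequal changes. Of the 12 tested, 4 rose and 0 fell, against 6.41% and 6.31% of all genes. The median log2 change was 0.14, with a range from -0.18 for Eif3k to 0.35 for Eif3b. Eif3a and Eif3c form part of the core of subunits with related folds, Eif3b is the hub of the part that touches the scanning ribosome, and Eif3l is a further core subunit.

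Eif3b was at 4810, 5288 and 6174 normalised reads in WT 1 to 3 and at 6472, 6708 and 7412 in T58A 1 to 3. The groups did not overlap, and the log2 change was 0.35 ± 0.06 (adjusted p 0.0133, limma-trend). Eif3c went from 4022, 4476 and 4345 to 5047, 5294 and 5820, again with no overlap. Its log2 change was 0.33 ± 0.06 (adjusted p 0.0158), and it had the largest step of the 3 pairs, 0.42, in the pair of male libraries. Eif3a was at 5315, 6745 and 7039 in WT and at 7221, 8024 and 8026 in T58A, a log2 change of 0.29 ± 0.07 (adjusted p 0.0298). Its steps differed more between pairs, 0.44 in pair 1 and 0.19 in pair 3.

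Eif3l was tighter within groups, at 3292, 3281 and 3213 in WT and 3661, 3980 and 3894 in T58A. Its log2 change of 0.24 ± 0.06 was the smallest to pass (adjusted p 0.0428, limma-trend), and it missed the threshold with scaling to total reads (0.0591) and with no filter on low counts (0.0539). Core subunits with a negative log2 change were Eif3k at -0.18 ± 0.08 (adjusted p 0.164), Eif3f at -0.14 ± 0.07 (0.209) and Eif3h at -0.08 ± 0.07 (0.518). None of these 3 passed. Eif3f, the subunit highest per length after Eif3b in IL7 WT, was at 5376, 4565 and 3820 in WT and at 4462, 4051 and 3841 in T58A, so its libraries overlapped and the pair of male libraries was level.

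In the cap-binding group 2 of 11 genes rose, against 6.41% of all genes. Eif4g1, the scaffold that joins the cap-binding protein, the helicase and eIF3, was at 7522, 9095 and 10119 normalised reads in WT 1 to 3 and at 10506, 11885 and 12595 in T58A 1 to 3. Every T58A library was above every WT library, and the log2 change of 0.39 ± 0.06, or 1.31-fold, had the smallest p of the 56 genes (adjusted p 0.00963, limma-trend). It passed with any pair left out. Eif4b, which stimulates the helicase, went from 7617, 8207 and 8390 to 9339, 9974 and 9892, a log2 change of 0.27 ± 0.06 (adjusted p 0.0243), with nearly equal steps of 0.29, 0.28 and 0.24 in the 3 pairs.

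Around them the cap-binding proteins did not pass. Eif4e, the cap-binding protein itself, had a log2 change of 0.23 ± 0.08 (adjusted p 0.103, limma-trend), and Eif4e3, a relative that binds the cap in another way, -0.26 ± 0.09 (adjusted p 0.0951). The helicase genes Eif4a1, Eif4a2 and Eif4a3 had 0.09, 0.00 and 0.10, where Eif4a3 serves chiefly in splicing marks on mRNA; 28.4% of the 50-base windows of Eif4a1 occur in other genes, mostly pseudogenes, so its counts are uncertain. Eif4g2, the scaffold that lacks the eIF4E site, was abundant at 16661 to 20076 in WT and 19372 to 22043 in T58A and had 0.14 ± 0.07 (adjusted p 0.186).

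Of the 4 proteins that bind eIF4E and keep it from eIF4G or carry it, Eif4ebp2 rose. Eif4ebp2 was at 1422, 1558 and 1459 in WT and at 1807, 1849 and 1887 in T58A, which do not overlap. Its log2 change was 0.32 ± 0.07 (adjusted p 0.0187, limma-trend). Eif4ebp1, the highest of the group per length, had -0.03 ± 0.07 (adjusted p 0.811), and Eif4enif1, a transporter of eIF4E into the nucleus, 0.11 ± 0.07 (adjusted p 0.283). Eif4ebp3 had -0.28 ± 0.14 (adjusted p 0.218), but 65.5% of its windows occur in another gene model that overlaps it.

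**Figure D3:**
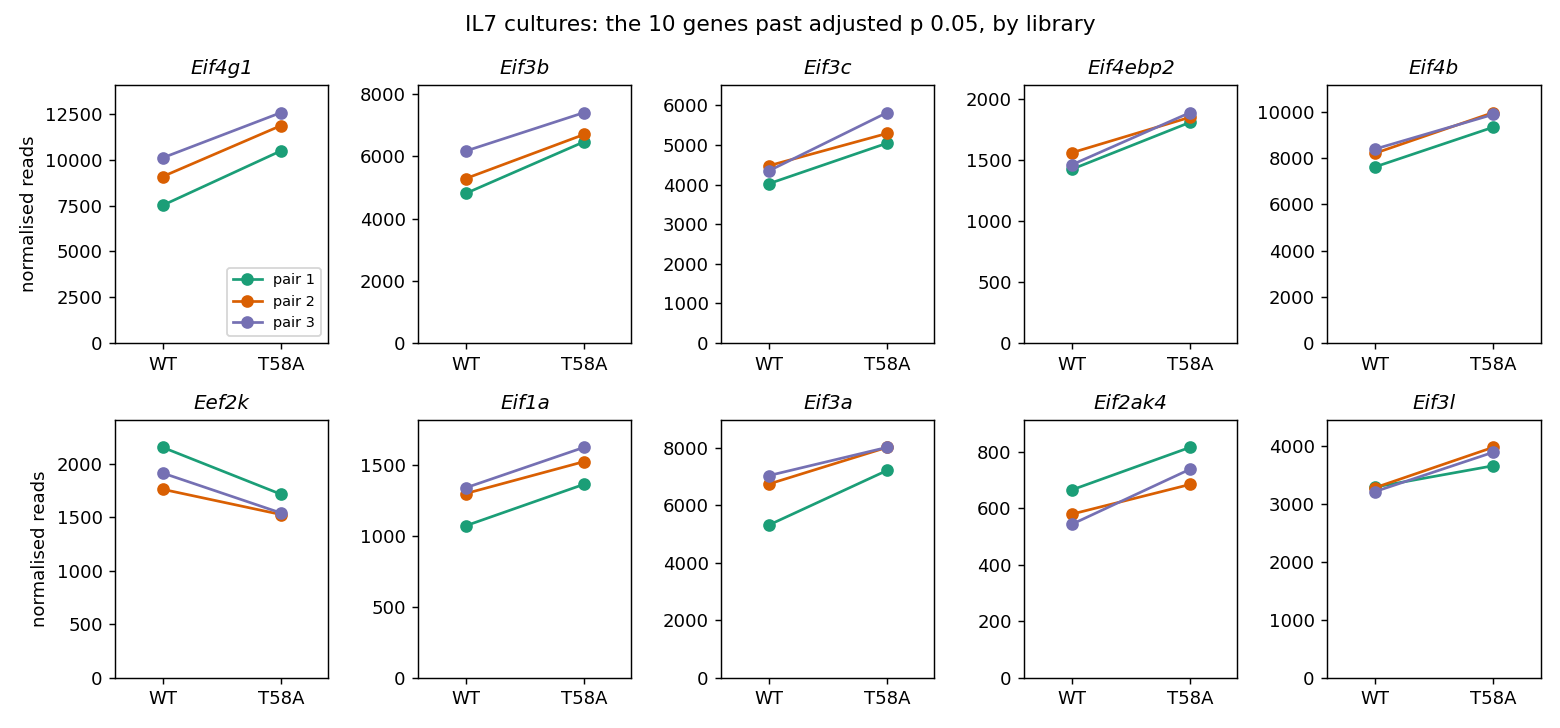
Normalised reads (vertical axes from 0, a scale per gene) of the 10 genes past an adjusted p of 0.05 in IL7 cultures, in WT and T58A libraries; each line joins a pair. All lines rise except those of Eef2k, which fall.

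Eif5a, Eif5a2 and Eif6, which keeps the large ribosomal subunit apart until it is ready, did not pass. Eif5a had 0.21 ± 0.07 (adjusted p 0.0728, limma-trend). Eif5a2 had the largest change of the 56 genes at 0.42 ± 0.13 (adjusted p 0.0701), from 103, 132 and 169.6 normalised reads in WT to 153, 177 and 204 in T58A. These libraries overlapped, since WT 3 exceeded T58A 1. Eif6 had 0.07 ± 0.08.

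For elongation, the 4 factors tested in IL7 were positive and none passed. Eef1d, an exchange subunit, had a log2 change of 0.23 ± 0.07 (adjusted p 0.0522, limma-trend). Eef1g, a structural subunit of the same complex, had 0.33 ± 0.10 (adjusted p 0.0648), but 44.2% of its windows occur in pseudogenes or other models. Eef1a1 had 0.08 ± 0.06 (adjusted p 0.419), from 25706 to 26280 in WT and from 27117 to 27741 in T58A, groups that did not overlap; 39.4% of its windows are shared too. Eef1e1, which is no elongation factor but a scaffold of the complex of tRNA synthetases, had 0.23 ± 0.09 (adjusted p 0.121).

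Eef2k fell. It was at 2154, 1762 and 1914 normalised reads in WT 1 to 3 and at 1715, 1525 and 1540 in T58A 1 to 3. The highest T58A library, 1715, was just under the lowest WT library, 1762. The log2 change was -0.28 ± 0.07 (adjusted p 0.0274, limma-trend), a fall of 17.8%, and its steps were -0.33, -0.21 and -0.31 in the 3 pairs.

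Of 53 other genes of the pathway, 10 rose in IL7 (18.9%, against 6.41% of all genes) and 3 fell (5.66%, near the 6.31% of all genes). Their median log2 change was 0.10. These IL7 calls are from the limma fit with the pair as a block. Without the block no gene passed in IL7, of these or of all 11604 genes (0%). In LPS 0 of 52 passed with or without the block, against 0.0354% of all genes with it and 0% without it. Among the 7 termination and recycling genes, 4 rose: the release factors Etf1 at 0.29 and Gspt1 at 0.38, its relative Gspt2 at 1.37 from a low level of 13.3 normalised reads in WT, and the recycling factor Abce1 at 0.26. The poly(A)-binding genes Pabpc1 and Pabpc4 rose by 0.24 and 0.34, and Paip2, which holds Pabpc1 off the tail, fell by 0.34. Larp1, which binds mRNAs of the translation machinery under mTOR control, rose by 0.52, and Pdcd4, an inhibitor of the helicase eIF4A, fell by 0.54. The other genes past the test were Dhx29 (0.34), a helicase for structured leaders, Dph1 (0.55), an enzyme that makes the diphthamide of eEF2, Gfm1 (0.37), a mitochondrial elongation factor, and Ddit3 (-0.53), a stress transcription factor downstream of eIF2 alpha phosphorylation.

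In LPS cultures no gene of the family passed. Without the block, 0 of 57 passed and 0 of 11291 genes did (0%), with 1 of the 57 and 284 of all genes at an unadjusted p under 0.05. The median log2 change was 0.04 against 0.01 over all genes, and 37 genes were positive and 20 negative. The table gives no pair number for a pair of its T58A columns, here named first and second. With the pairing under which DESeq2 returns the deposited p-values, first with WT 1 and second with WT 2, limma called 0 of 57 and 4 of 11291 (0.0354%), and DESeq2 0 of 57 and 213 of 11291 (1.89%). Under it, 8 of the 57 had an unadjusted p under 0.05 and the smallest adjusted p was 0.104. In the authors' deposited table Eif3e alone had an adjusted p under 0.05, at 0.0410, among the 50 genes of the family given one. There 80 genes in all were higher and 145 lower, of a number given an adjusted p that was not counted.

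Taken by these pairs, T58A was higher in LPS in every pair for 18 of 57 genes (31.6%) against 20.5%, and lower in every pair for 6 (10.5%) against 19.0%. Groups did not overlap for 1 gene, Eef1g, with T58A higher (1.75%), against 3.10% of all genes, and for 0 with T58A lower, against 3.30%.

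**Figure D4:**
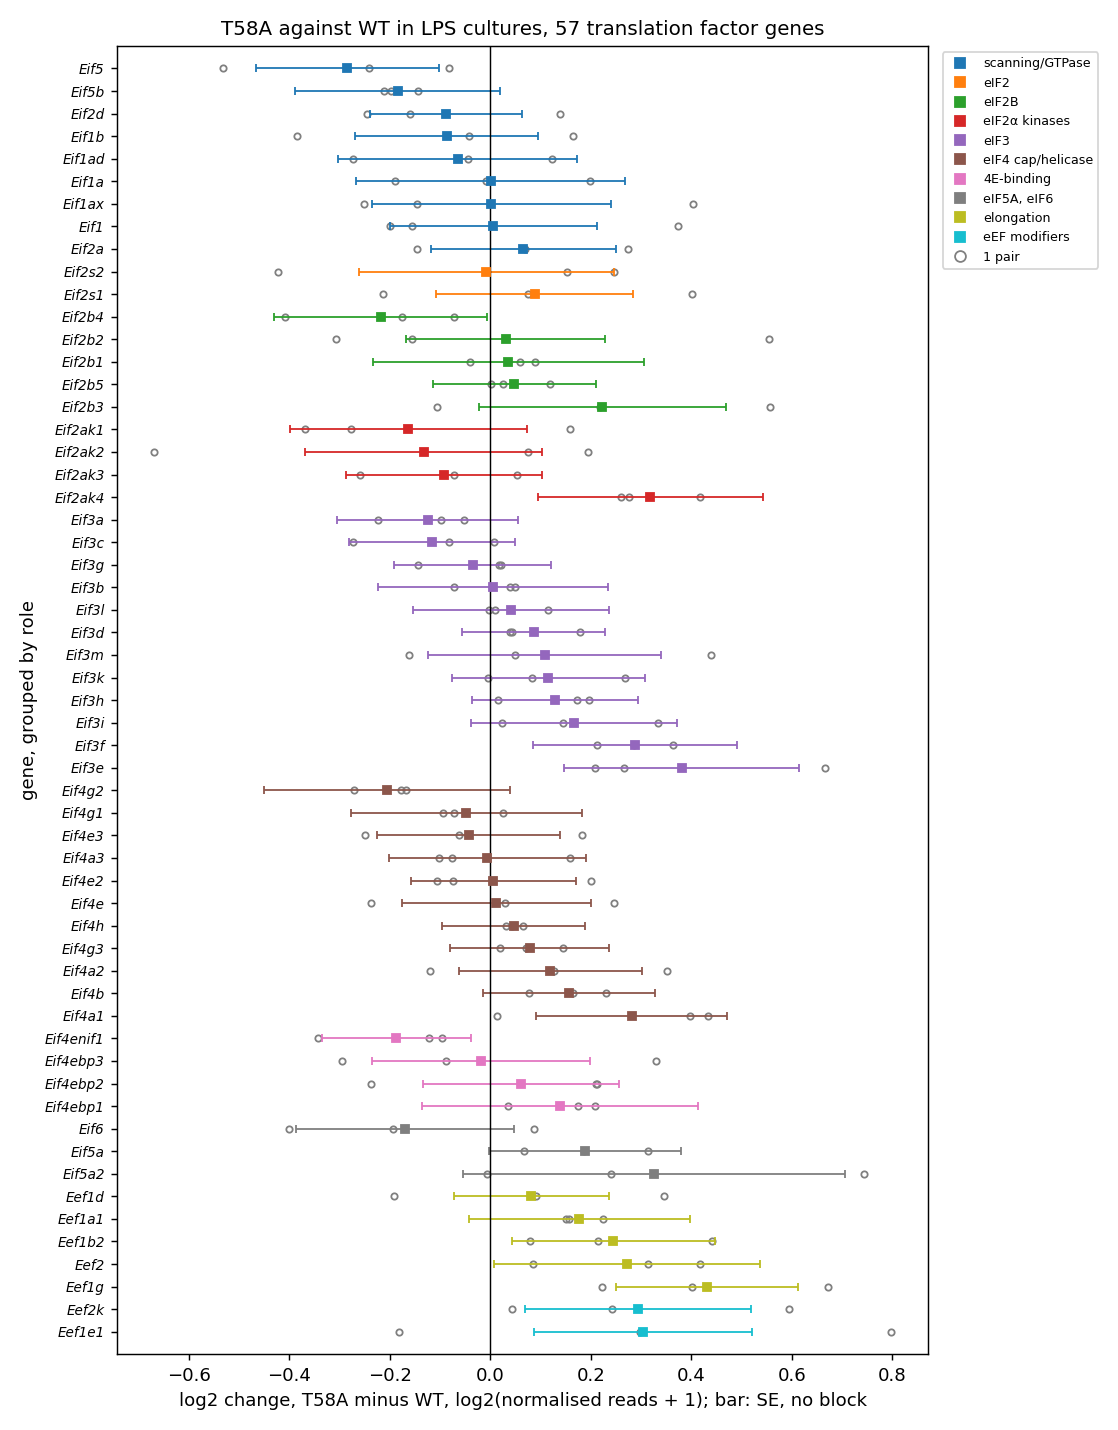
Log2 change, T58A minus WT, of the 57 genes tested in LPS cultures (horizontal axis, log2 of normalised reads plus 1), grouped by role; squares are means with their SE from the fit without a block, open circles the 3 pairs of the inferred pairing. No gene passes an adjusted p of 0.05. The bars come from a fit without the block and are not on a par with those of a blocked fit.

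The largest positive change there was that of Eef1g. The gene was at 548, 552 and 488 normalised reads in WT 1 to 3 and at 874, 729.7 and 570.1 in the first, second and T58A 3 columns. All T58A values lay above all WT values, and the log2 change was 0.43 ± 0.18 (p 0.0402, adjusted p 1.00, limma-trend). Eef2, the translocase, was at 37304, 49063 and 36426 in WT and 39576, 60993 and 48674 in T58A. Its groups overlapped, with a log2 change of 0.27 ± 0.26 (adjusted p 1.00). The 5 elongation factors ran from 0.08 to the value of Eef1g, and Eef2k, at 129 to 179.8 normalised reads in WT and 139.8 to 213 in T58A, had 0.29 ± 0.22. Eef1e1 had 0.30 ± 0.22.

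Among the initiation factors in LPS, Eif3e and Eif5 stood at the ends. Eif3e, an eIF3 core subunit, was at 2099, 2146 and 1530 in WT and at 3334, 2480 and 1841 in T58A, a log2 change of 0.38 ± 0.23 (adjusted p 1.00, limma-trend; 0.129 with the block). The groups overlapped, and the first column was far above the rest. Eif5 was at 3993, 2615 and 3200 in WT and at 2763, 2472 and 2707 in T58A, a log2 change of -0.28 ± 0.18 (adjusted p 1.00). Eif2ak4 had 0.32 ± 0.22, Eif2s1 0.09 ± 0.20, Eif4a1 0.28 ± 0.19, Eif2b4 -0.22 ± 0.21, Eif4enif1 -0.19 ± 0.15 and Eif5a 0.19 ± 0.19, none past the test. Eif4g1, with the smallest p in IL7, was at 3775, 3737 and 5392 in WT and at 3588, 3499 and 5487 in T58A, a log2 change of -0.05 ± 0.23.

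Whether the T58A effect differed between the cultures was tested with an interaction term in a fit of the 12 libraries. Without the block 0 of 56 genes and 0 of 10767 genes passed (0%), with 3 of the 56 (Eif3c, Eef2k and Eif5) and 479 of all genes at an unadjusted p under 0.05. With the pair as a block in both cultures, using the inferred LPS pairing, 3 of 56 passed: Eif3f had a higher effect in LPS (1.79% of the 56, against 3.19% of all genes) and Eif4g1 and Eif3c a lower one (3.57% against 0.901%). The differences, LPS minus IL7, were 0.43 ± 0.10 for Eif3f (adjusted p 0.0468, limma-trend), -0.44 ± 0.10 for Eif4g1 (0.0356) and -0.45 ± 0.11 for Eif3c (0.0454). Eef2k had the largest difference, 0.58 ± 0.15 (adjusted p 0.0547).

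Both directions of difference were found within eIF3. Eif3f was at 2823, 3642 and 2428 normalised reads in LPS WT and at 3635, 4222 and 2960 in LPS T58A, higher in each pair by 0.21 to 0.36, while in IL7 its pairs ran from -0.27 to 0.01. Eif3c was at 4701, 3683 and 3606 in LPS WT and at 3887, 3478 and 3623 in LPS T58A, with overlapping groups, where in IL7 all T58A libraries were above all WT libraries. The other subunits lay between these in the difference of effects, from -0.42 for Eif3a to 0.30 for Eif3k.

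**Figure D5:**
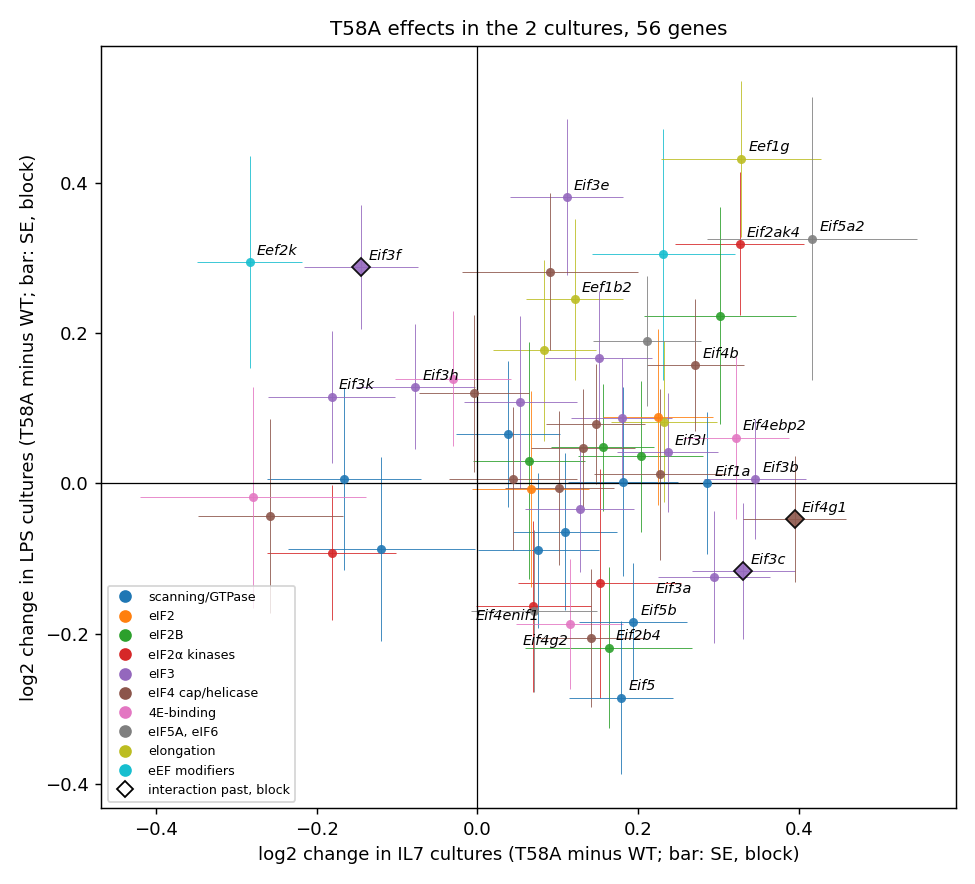
Log2 change, T58A minus WT, in IL7 (horizontal axis) against LPS cultures (vertical axis) for the 56 genes tested in both, coloured by role, with bars for the SE (pair as a block). Diamonds mark Eif3f at upper left and Eif4g1 and Eif3c at right, the genes whose effects differed with the block.

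MYC binds with its partner MAX to the E-box CACGTG, so the promoters of these genes were searched for those letters. RefSeq windows of GRCm38.p6, from 250 bases before to 50 after an annotated start, were given for 47 of the 61 genes, and 12 of them held the motif in at least 1 window (25.5%). It was present for 8.09% of all 27025 genes with a window and for 12.2% of those tested in IL7. Of the 8 genes that rose in IL7 and have a window, 2 held it, and of the 35 that neither rose nor fell, 8 did (22.9%). Over all genes with a window, it was present for 17.3% of the 561 that rose and 9.87% of the 547 that fell. A match is a description of letters and not a bound site. The stretches below are shown because their genes passed a test in IL7 or in the blocked interaction. CACGTG is in capitals, it reads the same on both strands, and each line runs 5′ to 3′ along the gene, with the first transcribed base as position 1.
Eif4g1: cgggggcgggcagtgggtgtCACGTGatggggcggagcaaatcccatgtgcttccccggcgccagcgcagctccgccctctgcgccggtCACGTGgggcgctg
Eif3a: cgctgccgccgcgagggaatCACGTGg
Eef2k: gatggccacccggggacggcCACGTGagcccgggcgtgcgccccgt
Eif3f: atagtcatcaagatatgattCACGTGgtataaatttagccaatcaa

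In Eif4g1 the motif begins at positions -54 and 16 (chr16:20672653-20672755, plus strand), on both sides of the RefSeq start of the window. In GENCODE M21 the Eif4g1 locus begins further upstream, at chr16:20668313. In Eif3a the motif begins at position 23, inside the transcript by the RefSeq start (chr19:60790665-60790691, minus strand). The GENCODE M21 locus of Eif3a has its 5′ end at chr19:60790658, so by that annotation the motif lies before the gene. In Eef2k, which fell in IL7, it begins at -31 (chr7:120842780-120842825, plus strand), and in Eif3f, which did not pass in either culture, at -68 (chr7:108934327-108934372, plus strand). The motif was thus present beside genes that rose, fell and did not pass.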

How the data were processed

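Libraries were made from total RNA with the TruSeq RNA v2 kit, per the labels. bcl2fastq 1.8.4, TopHat2 2.1.0, HTSeq 0.6.1, DESeq2 and the build mm10 are named in the submitters' processing notes. The authors deposited, for each culture, a signal per gene and library (a read count divided by 1 size factor) and, for T58A against WT, each gene's log2 fold change with its p-value, raw and adjusted. Dividing each column by its smallest step returned whole reads, within 0.001, for 100% of values, and these gave the depth. The kit does not mark strand, so overlapping genes cannot be told apart.

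Values were tested on log2(normalised reads + 1) with limma 3.58.1 (trend) in R 4.3.3, over all genes past filterByExpr of edgeR 4.0.16 (minimum count 10, minimum total 15), at a Benjamini-Hochberg adjusted p under 0.05. IL7 used the pair number of the titles as a block. Deviations from group means correlated at 0.41, 0.15 and 0.40 within pairs and from -0.36 to -0.05 across them, and DESeq2 1.42.0 with this block gave 94.0% of 16307 deposited p-values within 1%, against 15.8% without it. LPS and the interaction used no block, because a pair of LPS columns shares the header T58A2; DESeq2 returned 99.7% of 15759 deposited p-values with the first of them beside WT 1 and 17.0% with them exchanged. The test for normalised values replaced the one planned for raw counts. Fits were tested on simulated data. Labels name no animal, so the spread that the p-values measure may be technical. It is the spread between these libraries, or with the block that of the differences within pairs.

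Exon lengths, loci and shared 50-base windows came from GENCODE M21 (GRCm38), which matched 22709 of 24015 symbols; promoters came from RefSeq. Genes were named where they passed a test, had the smallest p in a role group and culture, were the highest of it per length, or are no factor themselves; others named in the text were singled out after their values were seen. Members, role groups, the 53 other genes and the tests were chosen with earlier results of these data known, among them that the fit of IL7 without the block called no gene and that the deposited p-values were paired. Alternatives changed the scaling, filter, pseudocount, tool, block, sex term and libraries. The fits of edgeR and DESeq2 without the block in IL7, and of DESeq2 with the block and of the block without each pair in LPS, were added after seeing the data, as was the promoter search.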

Additional observations from a re-analysis of the deposited data

Results flagged for a closer look

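The T58A effect differed between the LPS and IL7 cultures in the interaction with the pair as a block for 3 genes, as LPS minus IL7 on the log2 scale: Eif3c at -0.45, Eif3f at 0.43 and Eif4g1 at -0.44. Of the 56 genes, 1.79% had a higher effect in LPS and 3.57% a lower one, against 3.19% and 0.901% of all 10767 genes tested. This fit uses the inferred LPS pairing, and without the block no gene of the family passed.

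For 7 other genes every pair of one culture moved opposite to every pair of the other, with no adjusted p under 0.05 for the difference in either fit. Eef2k was lower in T58A in every IL7 pair and higher in every LPS pair, a difference of 0.58. The remaining genes were higher in T58A in every IL7 pair and lower in every LPS pair: the differences were -0.38 for Eif2b4, -0.42 for Eif3a, -0.30 for Eif4enif1, -0.35 for Eif4g2, -0.46 for Eif5 and -0.38 for Eif5b. These directions in LPS also rest on the inferred pairing. Over all genes tested, T58A was higher in every pair for 25.9% in IL7 and 20.5% in LPS, and lower for 26.0% and 19.0%. The share of all genes with opposite directions in IL7 and LPS was not counted. The count of 7 genes thus has no background beside it, and whether it exceeds that of other genes is not known. Some steps were very small, such as 0.0049 for Eif2b4 in IL7 pair 3 and 0.044 for Eef2k in LPS pair 3.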

How the results depend on the processing

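In IL7 the 9 higher and 1 lower genes became 0 and 0 with no replicate block (limma or edgeR). The same held with the sex term beside the block. It also held with all 12 libraries in 1 fit, where the block covered the IL7 pairs and not the LPS pairs. With DESeq2 without the block the counts became 2 and 0. The cause of these changes was not tested. Leaving out a pair gave 2 to 12 higher and 0 to 1 lower: 3 higher without pair 2 (Eif4g1, Eif3c and Eif4ebp2) and 2 without pair 3 (Eif4g1 and Eif3b), from fewer libraries. Scaling, filter, pseudocount and tool with the block moved the higher genes between 8 and 9, and no alternative reversed a named gene past the test. The IL7 median was 0.092 with the sex term and from 0.120 to 0.160 without a pair.

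In LPS the counts were 0 in all alternatives except the block without pair 3, which called 1 gene, Eef1g. The share of all genes called in that fit was not counted, so this call has no background beside it. Of the 50-base windows of Eef1g, 44.2% occur in pseudogenes or other models. The LPS median was -0.041 with the sex term and from -0.013 to 0.114 with a library or pair left out. The replicate block raised the genes whose effect differed between cultures from 0 to 3. Depth sets a limit for Eef1a2, at 3 reads or fewer. The median standard error of the family was 0.20 in LPS and 0.10 in IL7 without the block, and 0.10 and 0.07 with it.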
